A study of Mus musculus with 18 samples.

Results

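The 10 genes described here are genes that resting astrocytes express: Slc1a2, Slc1a3, Glul, Aqp4, Gja1, Ntsr2, Agt, Aldh1l1, S100b and Sparc. They were chosen by symbol, as every probe set that the platform annotation gives to 1 of these genes and to no other. That rule found 31 probe sets for the 10 genes, of 45101 probe sets and 18193 genes with a probe set of their own on an Affymetrix mouse expression array. 1 further probe set, which the annotation gives to several symbols, was left out.

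Astrocytes take up the glutamate that neurons release, through the transporters encoded by Slc1a2 (GLT-1) and Slc1a3 (GLAST), and turn it into glutamine with glutamine synthetase (Glul). They also line blood vessels with endfeet rich in the water channel aquaporin-4 (Aqp4) and couple to each other through gap junctions of connexin 43 (Gja1). Mutations in SOD1 cause an inherited form of amyotrophic lateral sclerosis, in which motor neurons die. Loss of GLT-1 protein from the spinal cord is a known feature of that disease and of its mouse models, so the transporters are followed here at the RNA level.

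The study measured 18 arrays in 6 groups of 3. These were motor neurons of the spinal cord from SOD1 mutant mice and from wildtype mice, motor neurons of the facial nucleus in the brainstem from SOD1 mutant mice and from wildtype mice, and ventral spinal cord tissue from SOD1 mutant mice and from wildtype mice. RNA of every sample went through a linear amplification with T7 polymerase. The titles of all 18 arrays carry the mark D60, which the labels do not explain. The labels do not spell out the SOD1 allele, strain, age, number of animals per sample or way of collecting the motor neurons, and they do not say whether the 3 samples of a group came from separate animals. P-values therefore cover only how far these samples scatter, and that scatter may be technical.

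Values are log2(intensity + 16) after quantile normalization of the deposited intensities over all arrays, and a difference of 1 is a doubling on that scale, which understates changes of dim probe sets. Each gene is described first by its brightest probe set, the 1 with the highest average of all 18 arrays. Differences were tested with limma on the 22519 probe sets at or above the median brightness in each comparison, and a difference was called at a Benjamini-Hochberg adjusted p under 0.05. A probe set whose group mean was below the median over all probe sets (8.36) has no fold given for that group. The members' brightest probe sets passed the brightness filter in every comparison for 10 of 10 genes. Of the 31 probe sets, 25 passed it for tissue, 21 for spinal motor neurons and 23 for facial motor neurons in the comparisons between genotypes.

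Motor neuron arrays differed from tissue arrays in quality as well as in origin. The signal ratio of the 3′ to the 5′ actin control probe sets was 25.3 to 39.1 in mutant and 40.9 to 56.9 in wildtype spinal motor neurons, 26.6 to 59.0 in mutant and 59.7 to 74.4 in wildtype facial motor neurons, and 1.56 to 1.78 in tissue. Arrays of either motor neuron site thus had a lower actin ratio in mutants than in wildtype, with no overlap. The same ratio for Gapdh overlapped between genotypes at both sites. It was 20.5 to 21.7 in mutant and 19.1 to 49.7 in wildtype spinal motor neurons. In facial ones it was 14.5 to 21.5 in mutants and 20.3 to 27.3 in wildtype. Of 14 motor neuron markers on the array, 13 were tested in mutant spinal motor neurons against tissue, with 12 called higher and 0 lower. In wildtype spinal motor neurons 11 of 14 tested were called higher and 0 lower. In wildtype facial motor neurons 9 of 12 tested were called higher and 1 lower. The medians of these markers were 2.18, 2.26 and 0.92 in that order. Over all probe sets tested, 7897, 6500 and 7939 were called higher in the same comparisons. The spinal motor neuron factor Mnx1 averaged 12.46 in mutant spinal and 12.25 in wildtype spinal motor neurons, against 5.71 in mutant facial and 5.17 in wildtype facial motor neurons, both below the median over probe sets. Sod1 itself was brighter in mutants in all kinds of sample (16.85 against 16.40 in spinal motor neurons, 16.75 against 16.51 in facial motor neurons and 16.49 against 16.10 in tissue), with no overlap between genotypes. No pair of arrays held identical values.

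The promoters of 4 members are printed from RefSeq (mouse build GRCm38.p6) because they stand at the ends of what follows. At the brightest probe sets Agt had the widest gap between motor neurons and tissue and S100b the narrowest, Slc1a2 encodes the main glutamate transporter, and Sparc had the widest gap between genotypes relative to its error. Capitals mark matches on either strand to any of 3 short motifs. The first is the TATA box, searched as TATAAA. The second is the GC box, searched as GGGCGG. The third is a partial site of nuclear factor I, a family of factors that act in astrocyte development, searched as TTGGC. Each motif was counted by itself, whether or not its match overlapped that of another. Agt lies on chromosome 8 (window chr8:124569657-124569956, minus strand), Slc1a2 on chromosome 2 (chr2:102706188-102706487, plus strand), S100b on chromosome 10 (chr10:76253586-76253885, plus strand) and Sparc on chromosome 11 (chr11:55420031-55420330, minus strand). Each window holds 300 bases around the start of transcription.
Agt: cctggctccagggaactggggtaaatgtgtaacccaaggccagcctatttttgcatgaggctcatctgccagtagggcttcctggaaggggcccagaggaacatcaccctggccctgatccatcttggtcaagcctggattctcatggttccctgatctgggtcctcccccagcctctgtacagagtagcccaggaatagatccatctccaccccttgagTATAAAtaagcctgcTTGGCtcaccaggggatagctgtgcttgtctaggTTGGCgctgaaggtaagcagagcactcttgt
Slc1a2: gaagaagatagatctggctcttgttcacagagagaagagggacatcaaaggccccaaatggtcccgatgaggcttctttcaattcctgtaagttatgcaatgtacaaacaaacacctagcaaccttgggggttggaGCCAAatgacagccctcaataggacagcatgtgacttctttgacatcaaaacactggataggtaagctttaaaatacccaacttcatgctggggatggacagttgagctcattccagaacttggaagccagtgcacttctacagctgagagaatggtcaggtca
S100b: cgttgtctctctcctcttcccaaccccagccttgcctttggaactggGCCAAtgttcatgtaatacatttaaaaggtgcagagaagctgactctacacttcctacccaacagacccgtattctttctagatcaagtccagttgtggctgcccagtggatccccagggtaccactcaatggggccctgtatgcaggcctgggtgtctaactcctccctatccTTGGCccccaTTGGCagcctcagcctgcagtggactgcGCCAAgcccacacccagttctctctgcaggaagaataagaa
Sparc: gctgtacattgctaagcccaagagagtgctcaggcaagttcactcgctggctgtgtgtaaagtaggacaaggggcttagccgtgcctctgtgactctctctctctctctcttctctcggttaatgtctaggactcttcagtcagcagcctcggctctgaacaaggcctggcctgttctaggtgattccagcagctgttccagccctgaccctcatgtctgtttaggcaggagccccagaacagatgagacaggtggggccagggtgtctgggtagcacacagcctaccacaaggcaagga

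Of the 10 members, 9 had a promoter in the table used. The TATA box was in 2 of these 9 (Agt and Slc1a3), against 13.6% of all 32851 promoters. The GC box was in 3 of 9 (Glul, Aldh1l1 and Slc1a3), against 35.7% of all, and the nuclear factor I letters in 5 of 9 (Agt, Slc1a2, S100b, Glul and Ntsr2), against 46.7% of all. The S100b window held the nuclear factor I letters 4 times and the Agt window 2 times, while the Sparc window held none of the 3 motifs. These matches describe the letters only.

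In motor neuron samples, most members were much dimmer than in ventral cord tissue. Of the 10 genes, 10 were called lower in mutant spinal motor neurons than in mutant tissue, 8 in wildtype spinal motor neurons than in wildtype tissue, and 9 in wildtype facial motor neurons than in wildtype tissue. The share of all tested probe sets called lower was 29% in the first of these comparisons, 24.8% in the second and 28.5% in the third. The median difference over the 10 genes was -2.25, -2.79 and -2.74 in that order, beside medians of 0.12, 0.08 and 0.12 over all probe sets tested. Both wildtype comparisons share the wildtype tissue arrays, and brainstem tissue was not analysed here, so facial motor neurons were set against tissue of another region. Whether fewer astrocytes in a sample or less of a transcript per cell lies behind a lower value cannot be told apart in such bulk samples.

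**Figure D1:**
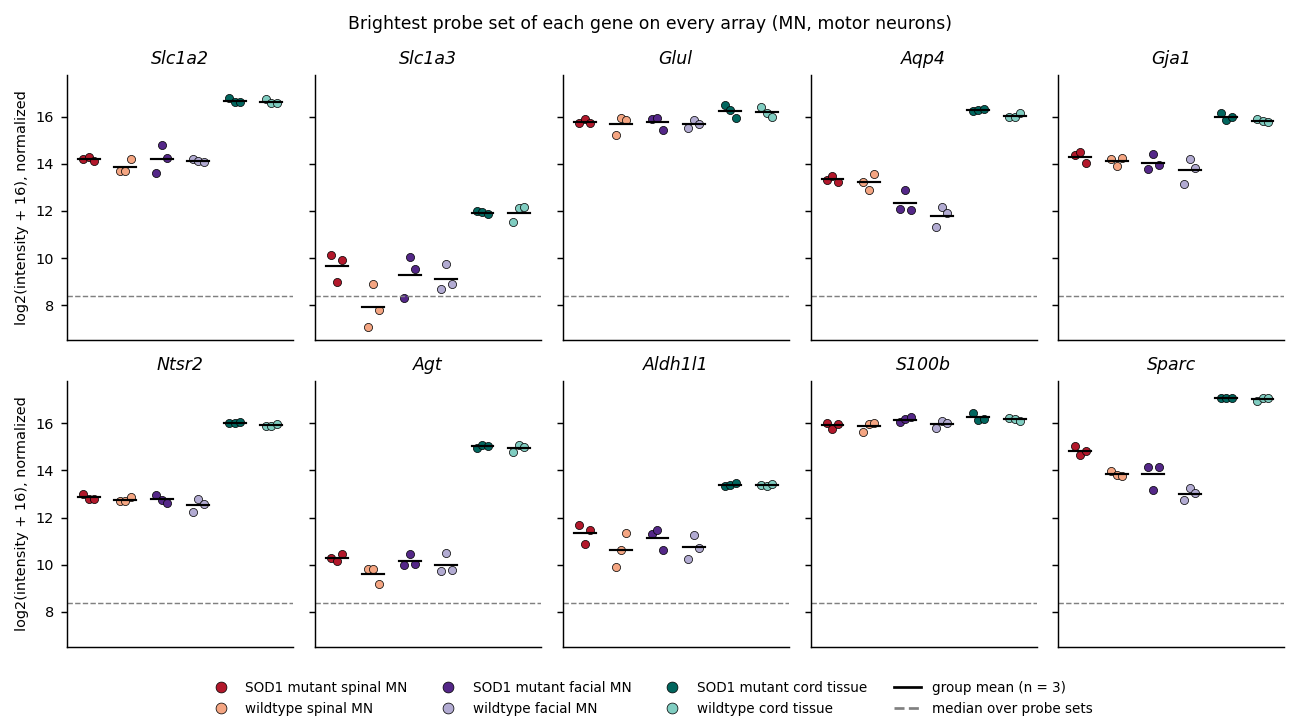
Each panel plots 1 member gene, with log2(intensity + 16) after normalization on the vertical axis, a point for each array and a bar for the mean of 3 arrays, for motor neurons (MN) and ventral cord tissue of SOD1 mutant and wildtype mice. The 6 tissue arrays lie above all 12 motor neuron arrays for most genes, while those of S100b and Glul overlap, and the dashed line marks the median over all probe sets (8.36).

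Of the glutamate genes, Slc1a2 (brightest probe set 1438194_at) read 14.21, 14.28 and 14.14 in mutant spinal motor neurons and 13.71, 13.69 and 14.22 in wildtype spinal motor neurons. In facial motor neurons it read 13.62, 14.79 and 14.26 in mutants and 14.22, 14.11 and 14.09 in wildtype. Tissue arrays read 16.82, 16.64 and 16.62 in mutants and 16.76, 16.59 and 16.58 in wildtype. All tissue arrays were therefore above all motor neuron arrays, and the 4 motor neuron groups overlapped. The gap was -2.48 (SE 0.08, adjusted p = 5.27e-08) in mutant spinal motor neurons, a 5.58-fold lower level. It was -2.77 (SE 0.16, adjusted p = 1.24e-05) in wildtype spinal and -2.50 (SE 0.07, adjusted p = 3.23e-07) in wildtype facial motor neurons. Of the dimmer Slc1a2 probe sets, 1451627_a_at was called lower too (-1.74, -2.05 and -1.72 in the same order), while 1439940_at was not called in any of the 3 (-0.38, -1.23 and 0.22).

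Slc1a3 was close to the median brightness of the array in motor neurons. Its brightest probe set (1443749_x_at) averaged 9.67 ± 0.62 in mutant spinal, 7.93 ± 0.92 in wildtype spinal, 9.29 ± 0.91 in mutant facial and 9.10 ± 0.56 in wildtype facial motor neurons, and 11.93 ± 0.07 in mutant and 11.93 ± 0.35 in wildtype tissue (SD, n = 3 each). Tissue stood apart from every motor neuron group, whereas neighbouring motor neuron groups overlapped. The difference was -2.26 (SE 0.29, adjusted p = 9.17e-05) in mutant spinal and -2.83 (SE 0.32, adjusted p = 0.000126) in wildtype facial motor neurons. In wildtype spinal motor neurons, whose mean was below the median over probe sets, it was called lower too (adjusted p = 0.000211). All other Slc1a3 probe sets that were tested were called lower as well, all with a mean below that median in spinal motor neurons.

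Glul, whose enzyme makes glutamine from glutamate and is also found in oligodendrocytes, differed far less at its brightest probe set. It read 15.74, 15.92 and 15.72 in mutant spinal and 15.24, 15.97 and 15.87 in wildtype spinal motor neurons. Facial motor neurons read 15.89, 15.96 and 15.45 in mutants and 15.51, 15.85 and 15.69 in wildtype, and tissue read 16.49, 16.28 and 15.94 in mutants and 16.42, 16.15 and 16.01 in wildtype. Each genotype's lowest tissue array was only just above its highest spinal motor neuron array, and across genotypes the ranges overlapped. Its difference of -0.44 in mutant spinal motor neurons (SE 0.13, adjusted p = 0.0118) and -0.51 in wildtype facial motor neurons (SE 0.12, adjusted p = 0.00679) was called. That of -0.50 in wildtype spinal motor neurons (SE 0.20, adjusted p = 0.067) was not. When arrays were set to a common median, all 3 turned positive and were called higher. Their adjusted p was then 0.000229 in mutant spinal, 0.00253 in wildtype spinal and 0.000115 in wildtype facial motor neurons. A second Glul probe set, 1426235_a_at, was called lower in all 3 comparisons, with differences of -2.07, -2.34 and -2.23 in mutant spinal, wildtype spinal and wildtype facial motor neurons.

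Among the other genes that handle glutamate and glutamine, 16 of a list of 19 were on the array under a symbol of their own. Of those tested, 9 of 13 were called lower and 2 higher in mutant spinal motor neurons, 8 of 13 lower and 0 higher in wildtype spinal motor neurons, and 8 of 12 lower and 1 higher in wildtype facial motor neurons. The glutamate transaminase Got1 differed by -2.07 (SE 0.14) in mutant spinal, -2.40 (SE 0.24) in wildtype spinal and -1.88 (SE 0.09) in wildtype facial motor neurons, all of them called. Neuronal genes moved down with the astrocyte ones in this list. Slc17a6, the vesicular glutamate transporter of excitatory neurons, differed by -4.58 in wildtype spinal and -5.49 in wildtype facial motor neurons, and Gad1, which makes GABA in inhibitory neurons, by -3.49 in wildtype spinal motor neurons, all called. The mitochondrial transaminase Got2 was called higher in mutant spinal motor neurons (0.67, SE 0.07, adjusted p = 2.2e-05).

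The 2 genes of astrocyte membranes showed how much a gap depended on the probe set. Aqp4 (1434449_at) read 13.33, 13.47 and 13.24 in mutant spinal and 13.24, 12.87 and 13.58 in wildtype spinal motor neurons, 12.10, 12.88 and 12.05 in mutant facial and 11.32, 12.17 and 11.92 in wildtype facial motor neurons. Tissue read 16.26, 16.30 and 16.33 in mutants and 15.99, 15.99 and 16.15 in wildtype. No motor neuron array came near a tissue array, and spinal arrays were above facial arrays of the same genotype. Aqp4 differed by -2.95 (SE 0.09, adjusted p = 3.6e-08) in mutant spinal, -2.82 (SE 0.18, adjusted p = 1.78e-05) in wildtype spinal and -4.24 (SE 0.20, adjusted p = 1.62e-06) in wildtype facial motor neurons. Its other probe sets gave -5.01 and -5.08, -6.40 and -4.61, and -6.35 and -4.69 in the same order, all called.

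Gja1 had 6 probe sets, and they did not agree. The brightest, 1437992_x_at, differed by -1.69 (SE 0.13) in mutant spinal, -1.72 (SE 0.13) in wildtype spinal and -2.10 (SE 0.23) in wildtype facial motor neurons, with adjusted p of 3.09e-06, 3.63e-05 and 0.000116. Probe set 1415801_at read between 5.61 and 8.49 on the 12 motor neuron arrays, against 14.11, 14.14 and 14.17 in mutant and 13.93, 14.32 and 14.11 in wildtype tissue. It was called lower in all 3 comparisons, but its mean in every motor neuron group was below the median over probe sets, so the size of the gap is not given. Probe set 1438973_x_at ran the other way and was called higher in mutant spinal motor neurons, where it averaged 10.19, against 8.22 in mutant tissue, which is below the median over probe sets (adjusted p = 0.000416). Its differences of 0.74 in wildtype spinal (adjusted p = 0.0746) and 0.39 in wildtype facial motor neurons (adjusted p = 0.243) were not called. Which stretch of the transcript each probe set reads was not analysed here.

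**Figure D2:**
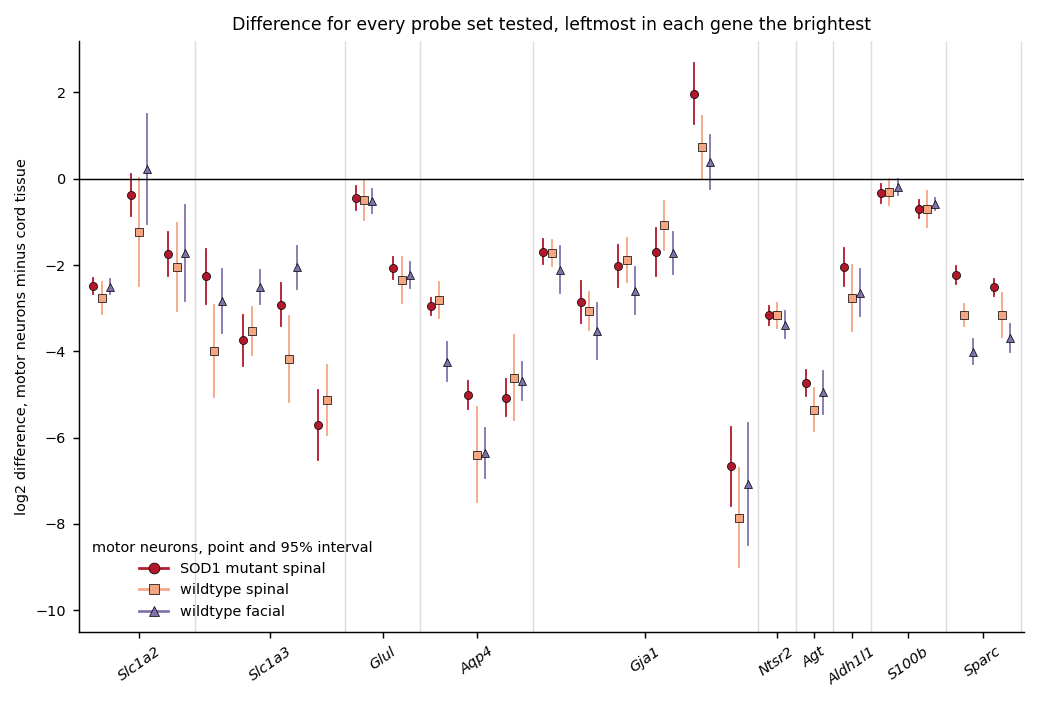
The vertical axis gives the log2 difference of motor neurons minus ventral cord tissue of the same genotype for every probe set tested, grouped by gene with the brightest at the left, as points with 95% confidence intervals for 3 comparisons. Probe sets of 1 gene spread widely for Gja1, Glul, Aqp4, Slc1a2 and Slc1a3. The lowest and highest Gja1 points and the lowest Slc1a3 points have a group mean below the median over probe sets. The distance of those points from 0 is therefore not a measured size.

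Ntsr2 encodes a neurotensin receptor and Agt the precursor of the angiotensin peptides, which astrocytes secrete. Ntsr2 (1417151_a_at) read 13.02, 12.77 and 12.80 in mutant spinal and 12.70, 12.69 and 12.89 in wildtype spinal motor neurons, and 12.95, 12.73 and 12.63 in mutant facial and 12.25, 12.79 and 12.58 in wildtype facial motor neurons. Tissue read 16.02, 16.02 and 16.05 in mutants and 15.88, 15.91 and 15.98 in wildtype. The motor neuron groups overlapped at a level far under tissue, with differences of -3.17 (SE 0.09), -3.16 (SE 0.13) and -3.38 (SE 0.13) in mutant spinal, wildtype spinal and wildtype facial motor neurons (adjusted p = 3.6e-08, 3.39e-06 and 7.9e-07).

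Agt (1423396_at), whose promoter above holds the TATA box match, had the widest gap of the 10 genes at their brightest probe sets. It read 10.26, 10.16 and 10.46 in mutant spinal and 9.79, 9.81 and 9.17 in wildtype spinal motor neurons, against 14.95, 15.09 and 15.06 in mutant and 14.77, 15.07 and 14.99 in wildtype tissue. Facial motor neurons read 9.999, 10.45 and 10.03 in mutants and 9.71, 10.48 and 9.78 in wildtype. All motor neuron arrays thus lay far below every tissue array. Agt was 26.7-fold lower in mutant spinal (-4.74, SE 0.13, adjusted p = 3.46e-08), 40.8-fold lower in wildtype spinal (-5.35, SE 0.22, adjusted p = 3.62e-06) and 30.9-fold lower in wildtype facial motor neurons (-4.95, SE 0.21, adjusted p = 1.16e-06).

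Aldh1l1, a folate enzyme widely used as a marker of astrocytes, read 11.67, 10.87 and 11.46 in mutant spinal and 9.89, 10.63 and 11.35 in wildtype spinal motor neurons. Facial motor neurons read 11.31, 11.45 and 10.62 in mutants and 10.26, 11.25 and 10.71 in wildtype, and tissue read 13.33, 13.36 and 13.45 in mutants and 13.39, 13.33 and 13.42 in wildtype. Tissue arrays differed by little, whereas the arrays of 1 motor neuron group spread widely and those groups overlapped. The difference was -2.05 (SE 0.20, adjusted p = 1.69e-05) in mutant spinal, -2.76 (SE 0.33, adjusted p = 0.000271) in wildtype spinal and -2.64 (SE 0.23, adjusted p = 3.54e-05) in wildtype facial motor neurons.

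S100b encodes a calcium-binding protein of astrocytes that oligodendrocytes and some neurons make too. Its brightest probe set (1434342_at) read 16.0002, 15.78 and 15.99 in mutant spinal and 15.62, 15.97 and 16.03 in wildtype spinal motor neurons, 16.08, 16.17 and 16.25 in mutant facial and 15.82, 16.10 and 16.01 in wildtype facial motor neurons, and 16.46, 16.13 and 16.20 in mutant and 16.23, 16.19 and 16.10 in wildtype tissue. The 6 groups formed a continuous range. The difference of -0.34 in mutant spinal motor neurons (SE 0.10, adjusted p = 0.0137) was called. Those of -0.30 in wildtype spinal (SE 0.13, adjusted p = 0.085) and -0.20 in wildtype facial motor neurons (SE 0.08, adjusted p = 0.0609) were not. When arrays were set to a common median, all 3 turned positive and were called higher. Their adjusted p was then 5.21e-05 in mutant spinal, 0.000177 in wildtype spinal and 2.72e-06 in wildtype facial motor neurons. The second S100b probe set, 1419383_at, was called lower in all 3 comparisons (-0.70, -0.70 and -0.58).

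Sparc encodes a secreted glycoprotein of the extracellular matrix that astrocytes, microglia and endothelial cells make. Its brightest probe set (1416589_at) differed by -2.23 (SE 0.10, adjusted p = 1.62e-07) in mutant spinal, -3.16 (SE 0.11, adjusted p = 2.41e-06) in wildtype spinal and -4.01 (SE 0.12, adjusted p = 3.56e-07) in wildtype facial motor neurons. The second probe set, 1448392_at, gave -2.51, -3.16 and -3.69. Sparc values by array are given below, with the genotypes.

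Most oligodendrocyte, endothelial and mural markers and most other astrocyte genes were lower in motor neuron samples too. Of the other astrocyte genes on the array, 30 of 35 were called lower and 2 higher in mutant spinal motor neurons, 30 of 36 lower and 2 higher in wildtype spinal motor neurons, and 31 of 36 lower and 2 higher in wildtype facial motor neurons, with medians of -1.98, -2.09 and -2.09. Gpr37l1, an orphan receptor of astrocytes, differed by -3.44, -3.54 and -4.26 in that order, while the secreted protease Htra1 was higher in wildtype spinal motor neurons by 1.59 (SE 0.10). All 13 oligodendrocyte markers were called lower in each comparison (medians -2.62, -2.26 and -2.49), as were 11 of 11, 11 of 12 and 8 of 12 endothelial and mural markers. Of the microglia markers 9 of 14, 9 of 13 and 10 of 13 were called lower, and 1, 0 and 0 higher. The reactive astrocyte genes went both ways, with 8 of 16, 6 of 13 and 6 of 13 called lower and 6, 4 and 4 called higher. Of 10 general neuron markers, 4 were called lower and 5 higher in mutant spinal, 4 lower and 2 higher in wildtype spinal, and 6 lower and 2 higher in wildtype facial motor neurons.

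The size of the tissue gap depended on how arrays were scaled, because motor neuron arrays had deposited medians of 286 to 341 and tissue arrays of 533 to 583. With the deposited values and no quantile normalization, the median over all tested probe sets was -0.29 in mutant spinal, -0.40 in wildtype spinal and -0.29 in wildtype facial motor neurons. At a common median per array it was 0.49, 0.42 and 0.55. The share of calls that were lower was 45.3%, 46.2% and 44.7% after quantile normalization, 61.2%, 64.3% and 60.3% with the deposited values, and 29.2%, 30.6% and 29.0% at a common median. Glul and S100b were the members whose sign turned under these scalings, and the other 8 genes kept theirs.

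Between genotypes no member was called in any kind of sample. In mutant spinal motor neurons the brightest probe set was higher than in wildtype in 10 of 10 genes, with a median difference of 0.27 beside 0.01 over all probe sets tested. In mutant facial motor neurons it was higher in 10 of 10 genes, with a median of 0.21 beside 0.02. In mutant tissue it was higher in 9 of 10, with a median of 0.07 beside -0.01. Other probe sets did not always follow. The second of S100b was lower in mutants in every kind of sample, and the second of Glul in facial motor neurons and tissue but not in spinal motor neurons. The other Aqp4 probe sets and Sparc 1448392_at were higher in every kind. By limma 0 of 10 genes passed in each kind, and at an unadjusted p under 0.05 there were 2 in spinal motor neurons, 1 in facial motor neurons and 1 in tissue. Over all probe sets, 0.04% were called in spinal motor neurons, 0% in facial motor neurons and 0.337% in tissue, and 1844, 3801 and 1948 had an unadjusted p under 0.05.

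**Figure D3:**
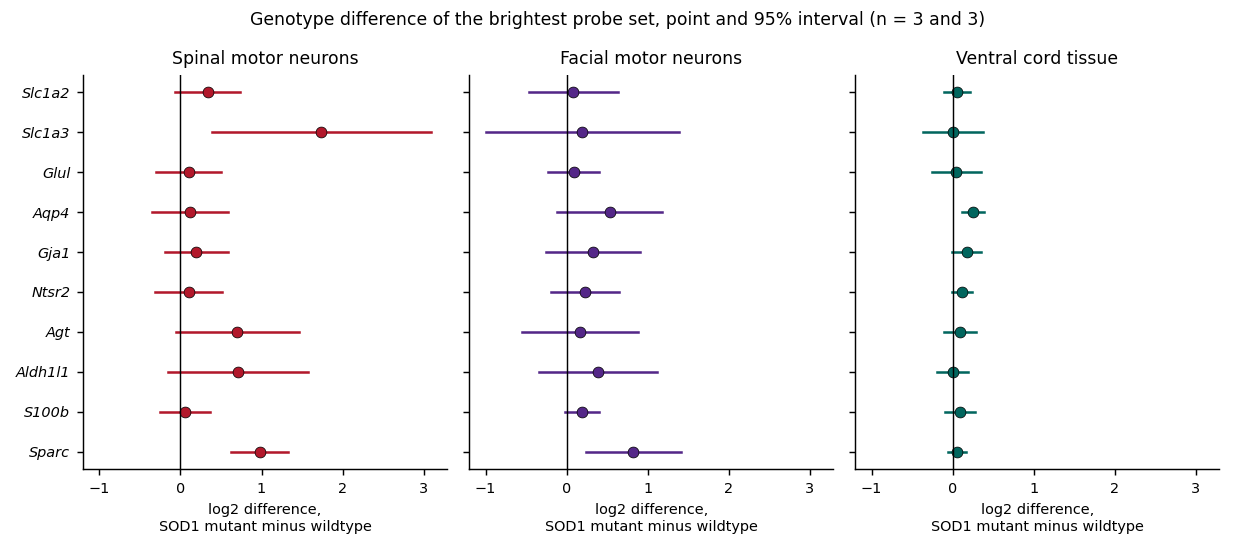
The horizontal axis gives the log2 difference of SOD1 mutant minus wildtype arrays for the brightest probe set of each gene, with its 95% confidence interval, in spinal motor neurons, facial motor neurons and ventral cord tissue. Sparc lies at 0.98 and 0.82 in motor neurons and at 0.05 in tissue, and no point passed the adjusted test.

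Sparc came nearest to a call in motor neurons. It read 15.05, 14.65 and 14.81 in mutant spinal motor neurons, against 13.99, 13.81 and 13.78 in wildtype spinal motor neurons. All mutant arrays were above all wildtype arrays, which held for 3 of the 10 brightest probe sets (Agt and Slc1a3 besides) and for 6.63% of all probe sets tested. The difference was 0.98 (SE 0.16, 95% confidence interval 0.62 to 1.33, adjusted p = 0.110), a 1.97-fold higher value that did not pass. The second probe set, 1448392_at, read 14.16, 14.01 and 14.31 in mutants and 13.0005, 13.33 and 13.94 in wildtype, a difference of 0.74 (SE 0.23, adjusted p = 0.551). The brightest probe set passed without wildtype replicate 2 (0.95, adjusted p = 0.0193), with all 18 arrays in one fit (adjusted p = 0.0223) and with array weights (adjusted p = 0.0270). Those settings called 782, 194 and 60 of all 22519 probe sets, against 9 in the main fit. With the actin ratio as a covariate the Sparc difference was 1.26 and did not pass (adjusted p = 0.568).

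In facial motor neurons Sparc read 14.16, 13.19 and 14.16 in mutants and 12.75, 13.26 and 13.03 in wildtype. Mutant replicate 2 lay inside the wildtype range and the other two mutant arrays above it. The difference was 0.82 (SE 0.26, 95% confidence interval 0.24 to 1.41, adjusted p = 0.187), and without mutant replicate 2 it was 1.15 and passed (adjusted p = 0.0325). Leaving out that array called 401 of all 22519 probe sets, against 0 in the main fit. The Sparc difference was 0.07 with the actin ratio as a covariate (adjusted p = 0.957), a ratio that was lower on all mutant than on all wildtype facial arrays. The second probe set read 13.89, 13.31 and 14.11 in mutants and 12.57, 13.11 and 12.997 in wildtype (0.88, SE 0.23, adjusted p = 0.137). None of the 10 brightest probe sets had all mutant facial arrays above all wildtype ones, as 12.3% of all probe sets did.

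In tissue the genotypes did not separate for Sparc, which read 17.09, 17.06 and 17.06 in mutants and 16.94, 17.06 and 17.06 in wildtype (0.05, SE 0.05, adjusted p = 0.847). It was the 51st brightest probe set on 4 of these 6 arrays, and quantile normalization gives equal ranks equal values. On the deposited scale the difference was 0.03 (adjusted p = 0.958). The genotype difference in spinal motor neurons minus that in tissue was 0.93 (SE 0.15, adjusted p = 0.0992) and did not pass, in a comparison where 0.0222% of probe sets were called, Gfap among them (1.97, SE 0.28, adjusted p = 0.0443). It passed without wildtype spinal motor neuron replicate 1 (0.99, adjusted p = 0.0325), without replicate 2 of that group (0.90, adjusted p = 0.00668) and without mutant spinal motor neuron replicate 2 (1.02, adjusted p = 0.0482). These fits called 17, 1372 and 7 of all 22519 probe sets in that order, against 5 in the main fit. The genotype difference in spinal minus facial motor neurons was 0.16 (SE 0.33, adjusted p = 0.916), in a comparison where 0% of probe sets were called.

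**Figure D4:**
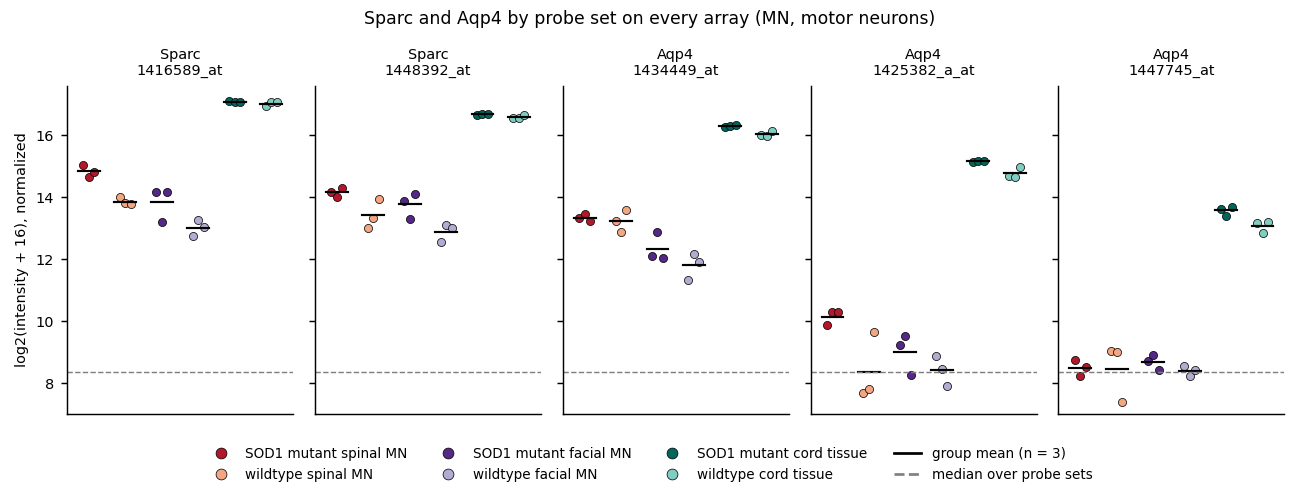
Each panel plots 1 probe set of Sparc or Aqp4, with log2(intensity + 16) after normalization on the vertical axis, a point for each array, a bar for the mean of 3 arrays and a dashed line at the median over all probe sets. Both Sparc probe sets show mutant spinal motor neurons above wildtype ones, and the 3 Aqp4 probe sets show mutant tissue above wildtype tissue.

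Some markers of other cells were called higher in the mutant samples in which Sparc was high, and others were not. In spinal motor neurons the summed intensity of 15 microglia markers was 72564 to 94956 in mutants and 12694 to 33638 in wildtype, 2 of 12 were called higher, and Itgam and Trem2 were below the median over probe sets in both genotypes. The reactive astrocyte genes summed to 211422 to 221100 in mutants and 156223 to 180803 in wildtype, and 1 of 12 was called higher, the astrocyte filament gene Gfap (2.85, SE 0.25, adjusted p = 0.00443). Endothelial and mural markers summed to 11736 to 14522 in mutants and 12434 to 21530 in wildtype, with 0 of 9 called and the endothelial genes Pecam1 and Vwf below that median in both. The actin ratio was lower on every mutant array. The part of these markers and of the actin ratio in the Sparc difference was not tested.

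In facial motor neurons those markers overlapped between genotypes, with microglia at 22919 to 26597 in mutants and 16471 to 35050 in wildtype and 0 of 12 called. Reactive astrocyte genes summed to 164259 to 192765 in mutants and 163721 to 178916 in wildtype, with 0 of 11 called, and endothelial and mural markers to 21778 to 51893 in mutants and 18275 to 79227 in wildtype. Gfap averaged 10.08 in mutants and 7.18 in wildtype, a mean below the median over probe sets, and was not called (adjusted p = 0.117). In tissue, 9 of 15 microglia markers and 3 of 16 reactive astrocyte genes were called higher in mutants, among them Gfap by 0.88 (SE 0.13, adjusted p = 0.0273).

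**Figure D5:**
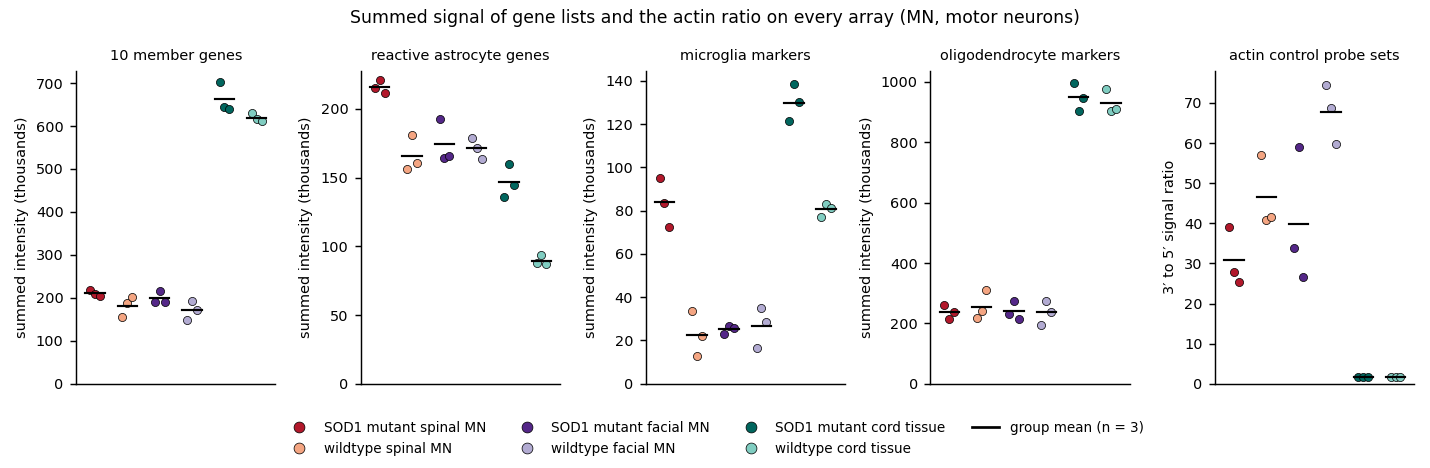
The first 4 panels plot the summed intensity of the brightest probe sets of a gene list, on a linear scale, and the fifth the 3′ to 5′ signal ratio of the actin control probe sets, with a point for each array and a bar for the mean of 3 arrays. The 10 members sum to between 149431 and 218742 on motor neuron arrays and to between 612421 and 701385 on tissue arrays.

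Summed over the 10 members, intensity was 204746 to 218742 in mutant spinal and 155590 to 202286 in wildtype spinal motor neurons. In facial motor neurons it was 190647 to 216049 in mutants and 149431 to 191539 in wildtype, and in tissue 640130 to 701385 in mutants and 612421 to 629426 in wildtype. Mutants were above wildtype without overlap in spinal motor neurons, by a narrow margin, and in tissue, while facial motor neurons just overlapped. These sums of linear intensity weigh the brightest genes most and were not tested. The other astrocyte genes separated in spinal motor neurons too, at 639254 to 659816 in mutants and 573688 to 601065 in wildtype. They overlapped in facial motor neurons and in tissue. Oligodendrocyte markers, which share the cord with astrocytes, had medians of -0.17 in spinal motor neurons, -0.18 in facial motor neurons and 0.05 in tissue, with 0 of 13 called in each.

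Neither glutamate transporter was called between genotypes in any kind of sample. For the brightest Slc1a2 probe set the difference in tissue was 0.05 (SE 0.07, 95% confidence interval -0.10 to 0.21, adjusted p = 0.892). The interval of that probe set thus reaches neither a doubling nor a halving. In spinal motor neurons its difference was 0.34 (SE 0.18, adjusted p = 0.626), with wildtype replicate 3 at the level of the mutants, and in facial motor neurons 0.08 (SE 0.24, adjusted p = 0.892). The dimmer probe set 1439940_at read 10.85, 10.28 and 10.43 in mutant spinal and 9.82, 9.45 and 9.49 in wildtype spinal motor neurons (0.94, SE 0.33, adjusted p = 0.558), but -0.62 (SE 0.35) in facial motor neurons. In tissue 1439940_at averaged 10.90 ± 0.25 in mutants and 10.82 ± 1.23 in wildtype (SD, n = 3 each), with wildtype arrays at 11.17, 11.84 and 9.45. Probe set 1451627_a_at averaged 10.64 in mutants and 10.84 in wildtype. Both probe sets overlapped between genotypes and neither was called.

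For Slc1a3 the tissue difference was 0.00 at the brightest probe set (SE 0.16, 95% confidence interval -0.36 to 0.37, adjusted p = 0.997). Probe set 1426340_at averaged 11.22 in mutant and 10.94 in wildtype tissue, without overlap, as for 6.3% of all probe sets. Probe set 1452031_at averaged 11.93 and 11.72, and 1426341_at 11.40 and 11.39, and none was called. In spinal motor neurons the brightest Slc1a3 probe set read 10.13, 8.96 and 9.91 in mutants and 7.09, 8.92 and 7.79 in wildtype. That was a gap without overlap of 1.74 (SE 0.61, 95% confidence interval 0.38 to 3.09, adjusted p = 0.558), on a wildtype mean below the median over probe sets. The gap in spinal motor neurons minus that in tissue was 1.73 (SE 0.58, adjusted p = 0.62). Of all the alternatives run it passed in 1, without wildtype spinal motor neuron replicate 2 (2.22, adjusted p = 0.0194). That fit called 1372 of all 22519 probe sets. No other Slc1a3 probe set was bright enough for the test between genotypes in spinal motor neurons. Their means, all below the median over probe sets, went both ways. In mutants and wildtype 1452031_at averaged 8.19 and 8.19, 1426340_at 8.30 and 6.75, and 1440491_at 6.70 and 5.61. Probe set 1426341_at averaged 5.69 and 6.27, and 1439072_at 5.26 and 5.58. Glul differed by 0.10 (SE 0.18) in spinal motor neurons, 0.09 (SE 0.14) in facial motor neurons and 0.04 (SE 0.14) in tissue, with adjusted p from 0.797 to 0.964. Of the other glutamate and glutamine genes, 0 of 10, 0 of 9 and 0 of 13 were called in that order, with Slc38a1, a glutamine transporter, at 0.55 (SE 0.21, adjusted p = 0.583) in spinal motor neurons.

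Aqp4 was the member that separated the genotypes most evenly in tissue. Its 3 probe sets were all higher on every mutant array than on any wildtype array, by 0.25 (SE 0.06, adjusted p = 0.200), 0.39 (SE 0.09, adjusted p = 0.171) and 0.49 (SE 0.12, adjusted p = 0.224), the first being the brightest. None passed, and 6.3% of all probe sets had all mutant above all wildtype tissue arrays. Among the brightest probe sets Ntsr2 did too, at 0.11 (SE 0.06, adjusted p = 0.633). In spinal motor neurons the 3 Aqp4 probe sets gave 0.11, 1.77 and 0.02, and in facial motor neurons 0.53, 0.59 and 0.28, none of them called. Reactive and microglial markers were higher in the same mutant tissue, and their part in the Aqp4 values was not tested.

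The other members had small or uneven genotype differences. Aldh1l1 differed by 0.71 (SE 0.39) in spinal motor neurons, 0.39 (SE 0.33) in facial motor neurons and -0.002 (SE 0.08) in tissue. Agt differed by 0.70 (SE 0.34), 0.17 (SE 0.32) and 0.09 (SE 0.09) in that order, and its mutant spinal motor neuron arrays were all above the wildtype ones. S100b differed by 0.05, 0.19 and 0.09 and Ntsr2 by 0.10, 0.23 and 0.11. For the brightest probe sets of these 4 genes the adjusted p was never below 0.345 in the 3 comparisons. The second S100b probe set, 1419383_at, was lower in mutants throughout and was not called. It averaged 15.68 in mutant and 15.73 in wildtype spinal motor neurons, 15.74 and 15.86 in facial motor neurons, and 16.37 and 16.44 in tissue. Gja1 differed by 0.20, 0.33 and 0.17 at its brightest probe set, while its probe set 1438973_x_at read 8.53, 7.67 and 8.45 in mutant tissue and 9.14, 9.79 and 9.37 in wildtype tissue (adjusted p = 0.147), with a mutant mean below the median over probe sets. Among the other astrocyte genes 0 of 35 were called in spinal motor neurons, 0 of 37 in facial motor neurons and 0 of 36 in tissue, with Kcnj10, the inward rectifier potassium channel of astrocytes, at 0.91 (SE 0.22, adjusted p = 0.404) and 0.82 (SE 0.18, adjusted p = 0.114) in the motor neuron comparisons.

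Spinal and facial motor neurons differed in 2 members, in comparisons that use the same motor neuron arrays as those between genotypes. Aqp4 was higher in spinal than in facial motor neurons, by 1.004 in mutants (SE 0.23, adjusted p = 0.0316, 2.01-fold) and by 1.42 in wildtype (SE 0.27, adjusted p = 0.0352, 2.68-fold), with no overlap between the sites. Sparc was higher in spinal motor neurons by 1.002 in mutants (SE 0.23, adjusted p = 0.0343, 2.003-fold) and by 0.85 in wildtype (SE 0.18, adjusted p = 0.0456, 1.80-fold), also with no overlap. The share of all probe sets called higher in spinal motor neurons was 2.52% in mutants and 1.25% in wildtype, and the other 8 genes were not called in either genotype. Neither gene passed at its other probe sets, with Sparc 1448392_at at 0.39 and 0.53 and Aqp4 1425382_a_at at 1.14 and -0.05 in mutants and wildtype. Aqp4 1447745_at averaged 8.49 in spinal and 8.68 in facial motor neurons of mutants, and 8.47 and 8.40 in wildtype.

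These calls were close to the threshold. In mutants the Aqp4 call was lost without any one of 5 of the 6 arrays (adjusted p 0.0809 to 0.105) and the Sparc call without any one of the 3 spinal arrays (adjusted p 0.0634 to 0.135). In wildtype both were lost without any one of 5 of the 6 arrays, all but spinal replicate 2 (adjusted p 0.0604 to 0.140 for Aqp4 and 0.0796 to 0.231 for Sparc), while the differences in those fits ran from 0.72 to 0.97 for Sparc and from 1.18 to 1.61 for Aqp4. Gfap was also higher in spinal motor neurons, by 3.87 in mutants (SE 0.28, adjusted p = 2.98e-05), and was called higher in wildtype (adjusted p = 0.0178), where its facial mean of 7.18 was below the median over probe sets, and 10 of 12 microglia markers were called higher there in mutants and 0 of 12 in wildtype. The actin ratio was lower on all wildtype spinal than on all wildtype facial arrays and overlapped between sites in mutants. The part of these in the Aqp4 and Sparc differences was not tested.

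S100b ran the other way in mutants, where the spinal arrays were all below the facial ones (-0.24, SE 0.10, adjusted p = 0.204). Slc1a2 probe set 1439940_at had all wildtype spinal below all wildtype facial arrays (-1.45, SE 0.32, adjusted p = 0.0525) without passing, beside -0.26 (SE 0.17) at its brightest probe set. Among the other astrocyte genes, Pla2g7, a lipid-cleaving enzyme, was called higher in spinal motor neurons in mutants (1.10, SE 0.22, adjusted p = 0.0189) and in wildtype (1.13, SE 0.21, adjusted p = 0.0324), and the sodium pump subunit Atp1b2 in wildtype (1.09, SE 0.23, adjusted p = 0.0471). In all, 1 of 36 was called in mutants and 2 of 35 in wildtype.

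By likeness over the 18 arrays, the mean of the 10 members, each scaled to the same mean and spread, was most like Scd2 (Pearson r 0.992), Slc44a1 (0.992), Fads1 (0.989), Trak2 (0.985) and Fads2 (0.984) among 11587 genes. Scd2, Fads1 and Fads2 are fatty acid desaturases. These correlations mostly restate the gap between tissue and motor neuron arrays. Over the 12 motor neuron arrays alone, Slc44a1, a choline transporter, came first (0.918), followed by Lonrf3 (0.910), Gtf2a1 (0.897), Ankrd13a (0.887) and Nup188 (0.884). For Slc1a2 by itself over those 12 arrays the nearest were Ippk (0.873), Mmut (0.850), Trhde (0.834), Bpgm (0.814) and Sfxn1 (0.813), none of them in a list used here. The points share groups, amplification and normalization, so the values describe these arrays only.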

How the data were processed

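The 18 arrays were deposited as 1 linear intensity per probe set, and the authors' step from scanned image to intensity is not given in the sources used here. On each array the mean after trimming 2% was 2500, so the deposited intensities had been scaled to a common mean. Per the labels' protocols, total RNA was amplified linearly with T7 polymerase. From these values log2(intensity + 16) was computed and quantile normalized over the 18 arrays. Each comparison was fitted on its own groups with limma 3.58.1 in R 4.3.3 (lmFit, eBayes with trend), over probe sets that are no controls and at or above the median brightness, with Benjamini-Hochberg adjustment over the 22519 tested. The number of arrays, 3 per group, limits the precision. Of the probe sets, 34945 had 1 symbol, 932 several and 9160 none, besides 64 controls. The fits were tested on simulated data.

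Every probe set of the 10 genes was eligible for naming, and of the other lists up to 4 genes with the smallest p per comparison, or 2 where none passed. The genes and lists were chosen with earlier results of these data known. Promoters are RefSeq's (GRCm38.p6). Alternatives were the scaling, the pseudocount (1 or 64), the filter, 1 probe set per gene, the variance model, a joint fit of 6 groups, array weights, a block for the replicate number, the actin ratio as a covariate, and dropping each array in turn.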

Additional observations from a re-analysis of the deposited data

Results flagged for a closer look

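Probe set 1438973_x_at of Gja1 had genotype differences of opposite sign in 2 kinds of sample, and neither passed the test. In facial motor neurons it read 10.01, 10.43 and 9.98 in mutants and 9.53, 9.97 and 9.95 in wildtype, with every mutant array just above every wildtype array, as for 12.3% of all probe sets (0.32, adjusted p = 0.614). In tissue it read 8.53, 7.67 and 8.45 in mutants and 9.14, 9.79 and 9.37 in wildtype, with every mutant array below (adjusted p = 0.147). The 2 genotype differences lie 1.54 apart, and that gap was not tested. The mutant tissue mean of 8.22 is below the median over probe sets, and the brightest Gja1 probe set did not show the pattern.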

How the results depend on the processing

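Between motor neurons and tissue, 0 of the 10 genes were called in all 3 comparisons with the actin ratio as a covariate; that ratio separates motor neuron from tissue arrays without overlap, so ratio and sample kind cannot be told apart. Other alternatives moved few calls, apart from calls of Glul and S100b that turned sign. In mutant spinal motor neurons 8 were called with the deposited values and without a variance trend (Glul and S100b lost) and 9 with array weights (Glul lost). Glul was also lost with the deposited values in wildtype facial and Gja1 at a common median in wildtype spinal motor neurons (-0.39). At the 75th percentile filter Slc1a3 was too dim to be tested in any of the 3 comparisons. Gained calls were Glul and S100b in wildtype spinal motor neurons with all 18 arrays in one fit, and S100b in wildtype facial ones with array weights and at the 75th percentile filter. With a turned sign, calls were gained at a common median for Glul and S100b in wildtype spinal and for S100b in wildtype facial motor neurons. The same held for S100b in wildtype facial motor neurons with the deposited values. With the actin covariate the sign turned for Slc1a3 (10.1) and Aldh1l1 (7.93) in wildtype spinal motor neurons, and in wildtype facial motor neurons for Slc1a3 (1.03), Aqp4 (3.50), Aldh1l1 (1.79), Gja1 (5.88) and Ntsr2 (0.80). At a common median Glul turned to 0.81, 0.92 and 0.98, and S100b to 0.94, 1.14 and 1.31, in mutant spinal, wildtype spinal and wildtype facial motor neurons. With the deposited values they turned to 0.031 and 0.16 in mutant spinal, to 0.095 and 0.32 in wildtype spinal and to 0.14 and 0.47 in wildtype facial motor neurons. The cause was not tested. Leaving out 1 array gave 10 calls in mutant spinal, 8 to 9 in wildtype spinal (Glul without wildtype spinal replicate 2) and 9 to 10 in wildtype facial motor neurons (S100b without wildtype facial replicate 2).

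Between genotypes, all 18 arrays in one fit and array weights each gave 1 call (Sparc) at both motor neuron sites. Over all 22519 probe sets, the joint fit called 574 and array weights 3128 in facial motor neurons, against 0 in the main fit. In spinal motor neurons they called 194 and 60, against 9. Leaving out 1 array gave 0 to 1 member calls at either site. The genotype effect in spinal motor neurons minus tissue gave 1 call with 1 probe set per gene (Sparc, adjusted p = 0.0393) and with array weights (adjusted p = 0.0110). Over all probe sets those settings called 6 of 10916 and 34 of 22519. Leaving out 1 array gave 0 to 2 member calls. Between sites, mutants gave 0 calls at a common median and without a variance trend, 1 with the actin covariate (Aqp4), and 0 to 2 leaving out 1 array. Wildtype gave 0 without the trend and with the actin covariate, and 0 to 2 leaving out 1 array.

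In no comparison did all 3 pairs of same-numbered samples correlate above 0.1 in their deviations from the group means. In tissue between genotypes 1 of 3 pairs did (replicate 1, r 0.25). Whether same-numbered samples share more than a number was not tested further. With the replicate block, tissue between genotypes gave 1 call (Aqp4, 0.25, adjusted p = 0.0491) against 0, and wildtype between sites 0 against 2. No other count of called members moved. Over all probe sets the block gave 154 calls against 76 in tissue, and 222 against 550 in wildtype between sites.

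Over all probe sets, counts of calls moved far more. Between genotypes they ran from 0 to 782 in spinal motor neurons (9 as reported), 0 to 3128 in facial motor neurons (0) and 3 to 182 in tissue (76). Between sites they ran from 76 to 1701 in mutants (1025) and 1 to 4045 in wildtype (550), and for the genotype effects from 0 to 1372 (5) against tissue and 0 to 168 (0) between sites. Between motor neurons and tissue the actin covariate left 0, 845 and 0 of 14433, 12089 and 14368 in mutant spinal, wildtype spinal and wildtype facial samples, and a filter at the 75th percentile, with fewer probe sets tested, 8420, 7306 and 8467.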
